A study of Mus musculus with 12 samples.

Results

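The alpha crystallin and small heat shock genes were followed through the mouse lens at postnatal day 7 (P7). The members were the rows of the gene count table named *Cryaa*, *Cryab*, *Hspb1*, *Hspb2*, *Hspb6* and *Hspb8*, which are 6 of 55487 gene identifiers, and all 6 were found. Lens RNA had been sequenced in 12 libraries, 3 from each of 4 genotypes, all on the B6J strain background. Wild-type lenses carried the intact *Trpm3* gene, which encodes a calcium-permeable cation channel. In *Trpm3*-KO mice, re-derived from frozen embryos, an IRES-LacZ-neo cassette placed by homologous recombination interrupts *Trpm3*. The cataract-associated p.I65M substitution of the channel, made by CRISPR/Cas9 editing, was present on one allele in *Trpm3*-I/M mice and on both alleles in *Trpm3*-M/M mice. These 3 genotypes are written KO, I/M and M/M here. The RNA of each library came from 4 lenses of males and 4 of females, so a library averages several animals, and the alleles are present in every cell of the mouse.

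Alpha crystallins are the most studied members of the small heat shock family. They form large oligomers that bind unfolding proteins without using ATP, and in the lens they also make up much of the soluble protein that gives the tissue its refractive power. Alpha A is nearly confined to the lens, while alpha B is also abundant in heart and skeletal muscle. The other family members are chaperones of stressed and contractile cells and bind to filaments, to the co-chaperone BAG3 and to one another.

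The files were first checked against their labels. Counts on genes ranged from 56162182 to 82090262 per library. *Trpm3* stood at 269.9, 250.6 and 285.1 CPM (counts scaled to the library total, after TMM scaling of libraries) in wild-type lenses and at 89.9, 99.7 and 96.3 CPM in KO lenses, which was 2.82-fold lower (log2 fold change −1.49 ± 0.060 SE, edgeR adjusted p = 3.36e-09). Its level was 370.2, 413.4 and 376.1 CPM in I/M lenses and 473.1, 468.5 and 484.1 CPM in M/M lenses, above wild-type in both (log2 fold change 0.53, adjusted p = 1.62e-05, and 0.82, adjusted p = 5.84e-08). All 10 lens fiber markers were detected, with a summed level of 30291 to 32593 CPM in wild-type libraries. One library went against its description: *Xist*, the RNA made from the inactive X chromosome of females, was at 0.072 CPM in I/M replicate 3 and at 74.0 and 121.0 CPM in the other I/M libraries, and the Y-linked gene *Ddx3y* was at 27.2 CPM there against 17.4 and 10.8 CPM. Leaving it out changed 1 call of a member, that of *Cryaa* in I/M against wild-type, which is given with and without it. Other pools were uneven in a lesser degree. Wild-type replicate 2 had *Xist* at 45.8 CPM against 210.3 and 162.3 CPM, and *Ddx3y* at 21.1 CPM against 13.4 and 15.6 CPM. *Xist* was at 304.9 CPM in KO replicate 2 against 145.9 and 165.6 CPM. The columns of M/M replicate 3 and KO replicate 2 carried an unexplained letter c after their names.

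The choice of library scaling bears on these genes, since crystallins hold a large share of all reads. The TMM factors were 0.828 to 0.905 in wild-type, 0.881 to 0.935 in KO, 1.00 to 1.01 in I/M and 1.22 to 1.27 in M/M libraries. Under scaling by library size alone, the 8984 tested genes had a median log2 fold change of 0.50 in M/M against wild-type, 0.20 in I/M against wild-type and 0.049 in KO against wild-type. That median was 0.31 in M/M against I/M and 0.46 in M/M against KO. In bulk samples, fewer cells of a type and less RNA per cell cannot be told apart.

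The 6 genes spanned several orders of magnitude. By counts *Cryaa* ranked first of all genes in every library, *Cryab* ranked between 7 and 11, *Hspb1* between 29 and 68, *Hspb6* between 1396 and 3193, *Hspb2* between 4290 and 5601, and *Hspb8* between 5720 and 10033. Levels of different genes were compared per kilobase of exon. On that scale *Cryaa* stood at 81915 ± 4132 scaled CPM per kilobase in wild-type lenses (SD, n = 3), *Cryab* at 15753 ± 1634 and *Hspb1* at 860 ± 80.2. *Hspb2* followed at 14.6 ± 1.01, *Hspb6* at 11.5 ± 1.40 and *Hspb8* at 1.33 ± 0.243. The ranges of neighbouring genes in this wild-type order did not overlap, but the order of *Hspb2* and *Hspb6* depends on the length used: with the median coding transcript, a length chosen after seeing the data, they stood at 18.3 ± 1.27 and 19.4 ± 2.37, and their ranges overlapped. In M/M lenses *Hspb6* (23.6 ± 0.341 per kilobase of exon) lay above *Hspb2* (18.3 ± 1.42).

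**Figure D1:**
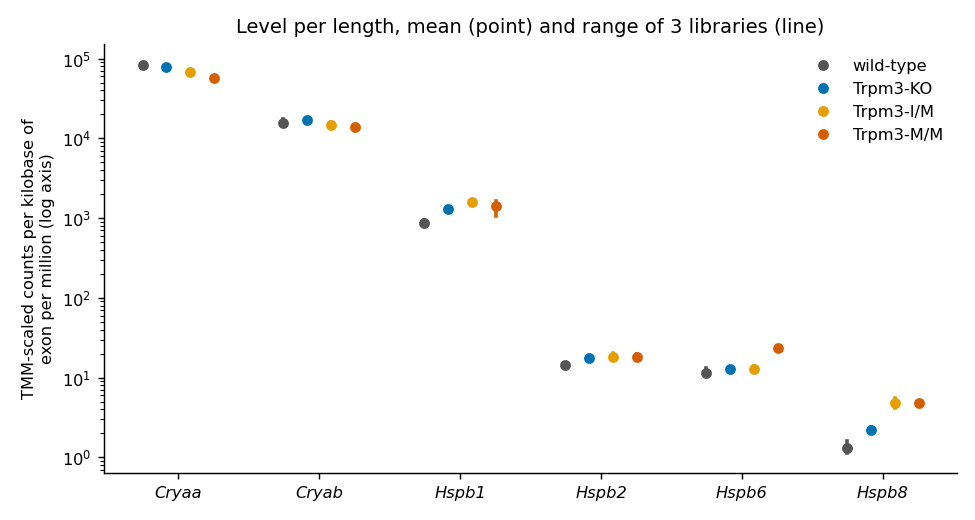
TMM-scaled CPM per kilobase of exon on a log axis for the 6 genes, with the mean (point) and the range of 3 libraries (line) in each genotype. *Cryaa* and *Cryab* lie far above the rest, *Hspb1* in between, and *Hspb8* lowest, from 1.33 in wild-type to 4.83 in M/M lenses.

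*Cryaa* encodes alpha A crystallin and lies on chromosome 17 (chr17:31677807-31681733, plus strand, GRCm38). It was counted at 165029, 179960 and 165180 CPM in wild-type, 174657, 161302 and 156936 CPM in KO, 145067, 139310 and 132548 CPM in I/M, and 120299, 121807 and 115660 CPM in M/M libraries. The M/M libraries lay below all others, the I/M libraries came next, and wild-type and KO libraries overlapped. With TMM scaling *Cryaa* fell 1.43-fold in M/M against wild-type (log2 fold change −0.51 ± 0.077 SE, adjusted p = 6.18e-05), but with library size only the difference was −0.00098 (adjusted p = 0.985). In I/M against wild-type it fell 1.22-fold (−0.29 ± 0.077, adjusted p = 0.0107), again only with TMM-type scaling, since library size only gave −0.089 (adjusted p = 0.121). That call was also lost without I/M replicate 3 (−0.26, adjusted p = 0.0649) and with only the compared genotypes in the fit (−0.28, adjusted p = 0.0621). KO and wild-type differed by −0.050 (95% interval −0.22 to 0.12, adjusted p = 0.800).

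*Cryab* encodes alpha B crystallin and lies on chromosome 9 (chr9:50751325-50756636, plus strand). Its level was 22621, 25982 and 21294 CPM in wild-type, 26030, 24872 and 23913 CPM in KO, 23844, 21480 and 20547 CPM in I/M, and 19327, 21000 and 21445 CPM in M/M libraries. Wild-type libraries overlapped with those of each other genotype. In M/M against wild-type the log2 fold change was −0.18 (95% interval −0.36 to 0.0024, adjusted p = 0.0787), and it was 0.34 with library size only (adjusted p = 0.000306), so the sign follows the scaling. The fall passed the test with DESeq2 and its own size factors (adjusted p = 0.0377), and with TMM scaling under a lower filter of CPM of at least 1 (0.0344) and without wild-type replicate 3 (−0.24, adjusted p = 0.0295). The log2 fold change was −0.086 in I/M (95% interval −0.27 to 0.095, adjusted p = 0.473) and 0.098 in KO against wild-type (95% interval −0.083 to 0.28, adjusted p = 0.591), and with library size only the I/M value was 0.12.

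**Figure D2:**
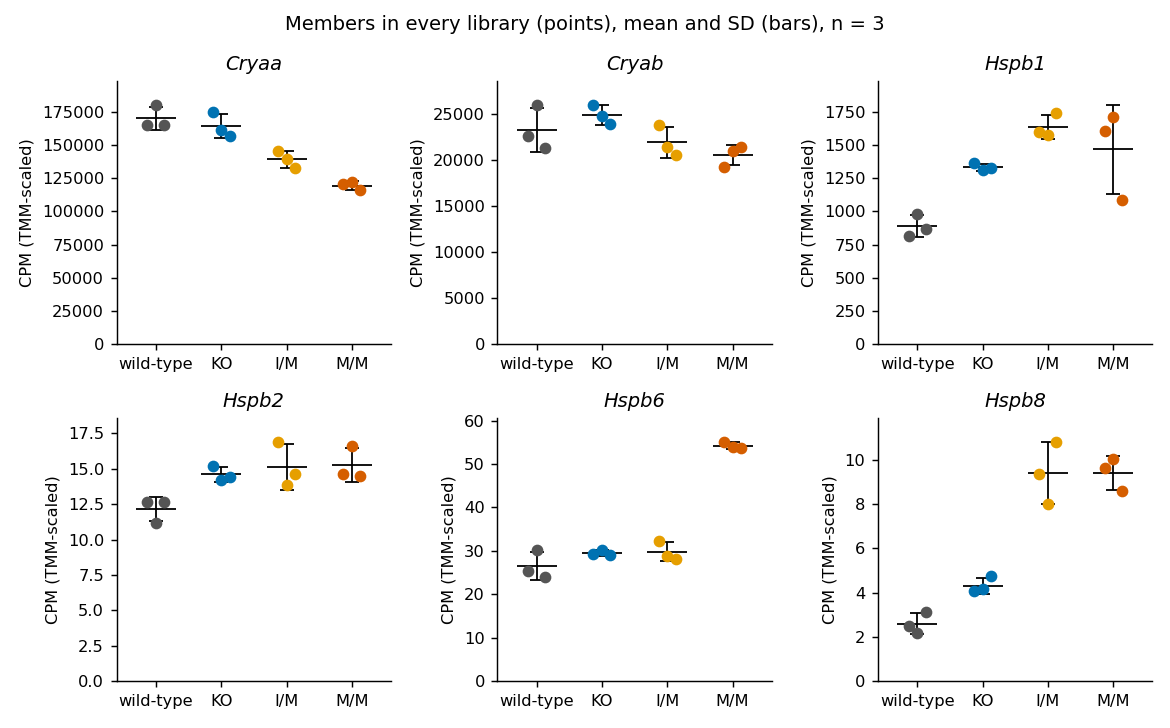
TMM-scaled CPM of the 6 genes in every library (points), with the mean and SD of 3 libraries (bars), each panel on its own linear axis from 0. *Cryaa* steps down from wild-type to I/M and M/M with this scaling and is level in M/M with library size only, *Hspb6* stands apart in M/M, and *Hspb8* is as high in I/M as in M/M. One M/M library (1085 CPM) is low for *Hspb1*.

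A share of all counted reads is the level scaled by library size only, so the next values carry that scaling and not TMM. *Cryaa* took 14.9% ± 0.051 of all counted reads in wild-type, 14.9% ± 0.426 in KO, 14.0% ± 0.622 in I/M and 14.9% ± 0.281 in M/M libraries (SD, n = 3). The share was the same in M/M and wild-type to within 0.010 percentage points of the means. *Cryab* took 2.04% ± 0.120, 2.26% ± 0.029, 2.21% ± 0.173 and 2.57% ± 0.191 in the same order. The M/M libraries (2.36%, 2.62% and 2.73%) all lay above the wild-type libraries (2.05%, 2.15% and 1.91%).

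The other 14 crystallins, the beta and gamma crystallins that pack the fiber cells, took 45.2% ± 1.44 of counted reads in wild-type and 33.1% ± 1.15 in M/M libraries, with 43.7% ± 0.746 in KO and 41.3% ± 0.240 in I/M. Ratios within a library, as follow here, use no library scaling. The alpha crystallins' share of all crystallin reads was 27.6%, 26.7% and 27.4% in wild-type, 28.4%, 27.9% and 28.2% in KO, 29.3%, 28.1% and 27.1% in I/M, and 33.3%, 35.01% and 35.4% in M/M libraries. The M/M libraries lay above all 9 others. The mean share was 7.30 percentage points higher in M/M than in wild-type, 6.38 higher than in I/M and 6.37 higher than in KO lenses. Each of these differences had the smallest p that 3 against 3 libraries allow in a two-sided exact permutation test (p = 0.1, Benjamini–Hochberg adjusted p = 0.157 over 55 such tests), so the design cannot reach 0.05. The KO libraries also lay above wild-type, by 0.936 percentage points, with the same p.

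Fewer *Cryaa* counts were found for each *Cryab* count in the *Trpm3* genotypes than in wild-type. There were 7.30, 6.93 and 7.76 *Cryaa* counts for each *Cryab* count in wild-type, 6.71, 6.49 and 6.56 in KO, 6.08, 6.49 and 6.45 in I/M, and 6.22, 5.80 and 5.39 in M/M libraries. Every library of the 3 *Trpm3* genotypes lay below every wild-type library. The ratio was 0.793 of the wild-type mean in M/M, 0.865 in I/M and 0.899 in KO (exact permutation p = 0.1 for each, adjusted p = 0.157). M/M and I/M libraries overlapped (exact permutation p = 0.2, adjusted p = 0.282).

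**Figure D3:**
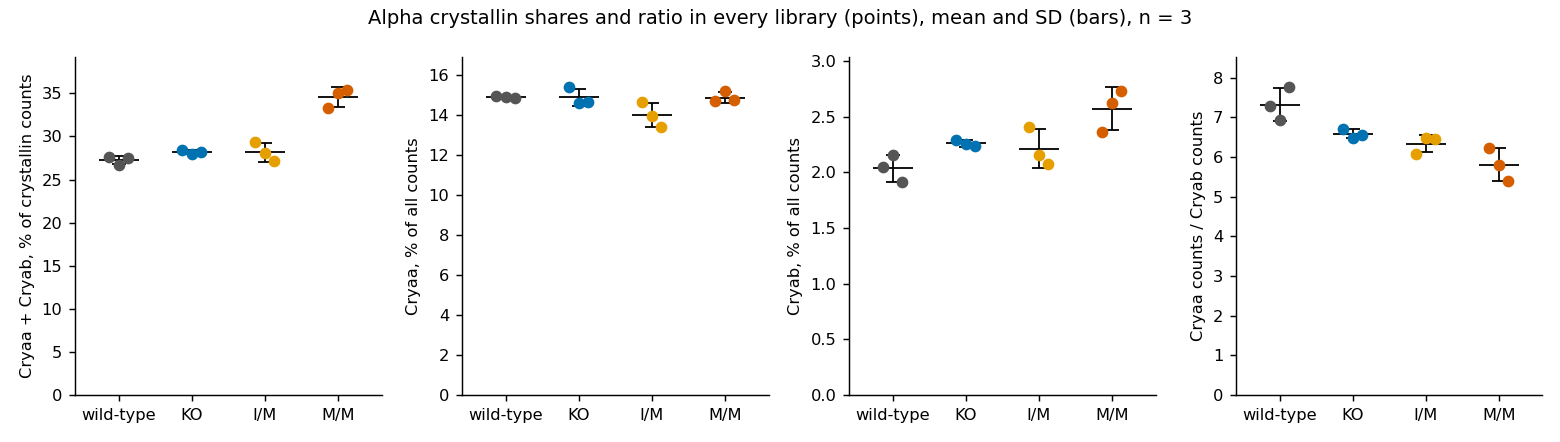
From left, both alpha crystallins as a percentage of crystallin counts, *Cryaa* and *Cryab* each as a percentage of all counts, and the number of *Cryaa* counts per *Cryab* count, in every library (points) with the mean and SD (bars, n = 3). The alpha share of crystallin counts is highest in M/M (mean 34.6%) and the *Cryaa* to *Cryab* ratio lowest there (mean 5.81).

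Overlapping genes limit these counts, since no source used here states the strand of the reads. An antisense gene, AC090881.2, spans all of *Cryaa* and shares 273 exonic bases with it. It was counted 938 to 1926 times per library, which was 1.32 ± 0.212 per 10000 *Cryaa* counts in wild-type and 1.74 ± 0.077 in M/M libraries. *Cryab* and *Hspb2* overlap head to head on opposite strands by 1030 bases, 252 of them exonic.

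For the members with a reference promoter sequence (*Hspb1*, *Hspb6*, *Hspb8* and *Cryaa*, the last of which was not higher in mutant lenses), that sequence is shown with 1 feature marked. Heat shock factors bind inverted repeats of GAA, here searched as GAANNTTC and TTCNNGAA, each of which reads the same on both strands. The windows are 150 bases before to 20 bases after the RefSeq transcript start on GRCm38.p6, and capitals mark a GAANNTTC match:
Hspb1 (chr5:135887769-135887938, + strand): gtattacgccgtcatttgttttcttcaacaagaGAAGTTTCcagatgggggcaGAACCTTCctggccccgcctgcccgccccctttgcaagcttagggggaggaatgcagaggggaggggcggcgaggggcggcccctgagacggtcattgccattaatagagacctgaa
Hspb6 (chr7:30553151-30553320, + strand): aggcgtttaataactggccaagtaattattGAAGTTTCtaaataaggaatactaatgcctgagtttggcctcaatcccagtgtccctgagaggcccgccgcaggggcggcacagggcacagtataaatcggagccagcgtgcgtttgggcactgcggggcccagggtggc
Hspb8 (chr5:116422845-116423014, - strand): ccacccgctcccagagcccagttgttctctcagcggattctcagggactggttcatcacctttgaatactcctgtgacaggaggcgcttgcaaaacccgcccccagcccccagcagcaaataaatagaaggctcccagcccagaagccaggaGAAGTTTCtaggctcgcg
Cryaa (chr17:31677781-31677950, + strand): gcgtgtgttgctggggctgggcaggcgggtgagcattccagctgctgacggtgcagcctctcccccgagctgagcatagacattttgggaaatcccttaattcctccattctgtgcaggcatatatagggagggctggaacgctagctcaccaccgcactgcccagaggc
RefSeq promoter windows, running from 250 bases before to 50 bases after a start, were found for 4 of the 6 members (*Cryaa*, *Hspb1*, *Hspb6* and *Hspb8*), and none was found for *Cryab* and *Hspb2*. *Hspb1* held 2 matches, at −117 to −110 and −97 to −90 from the start. The shown *Hspb6* window held 1, at −120 to −113, while the window of its other RefSeq start held none. *Hspb8* held 1 at 3 to 10 bases after the start, inside the transcript, and *Cryaa* held none. Either form occurred in 15.1% of all 32851 windows and for 16.97% of 27025 genes. The letters were chosen with these windows in view, and a match is not evidence of binding.

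*Hspb1* encodes HSP25, the mouse counterpart of human HSP27, a stress-inducible chaperone that also binds actin (chr5:135887919-135889563, plus strand). It was counted at 815, 977 and 869 CPM in wild-type, 1363, 1311 and 1327 CPM in KO, 1596, 1576 and 1739 CPM in I/M, and 1607, 1709 and 1085 CPM in M/M libraries. Every library of the other genotypes lay above every wild-type library, and M/M replicate 3 lay below every KO and I/M library. *Hspb1* rose 1.85-fold in I/M (log2 fold change 0.88 ± 0.13 SE, adjusted p = 0.000164) and 1.65-fold in M/M (0.73 ± 0.13, adjusted p = 0.000259).

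In KO *Hspb1* rose 1.503-fold (0.59 ± 0.13, adjusted p = 0.0177). This was one of 2 members called there, and the call was lost in several fits that left out 1 library: the adjusted p was 0.0593 to 0.0685 without wild-type replicate 1 or 3 or without any one KO replicate. A processed copy of the gene, *Hsp25-ps1*, was at 121 ± 7.58 CPM in wild-type, 154 ± 13.6 in KO, 201 ± 15.6 in I/M and 182 ± 56.8 in M/M libraries. Its level was also low in M/M replicate 3, at 116 CPM against 212 and 217 CPM. Reads of near-identical copies can be split between them by the counting, so both levels are uncertain.

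*Hspb6* encodes HSP20, a chaperone best known from heart and smooth muscle (chr7:30552178-30555443, plus strand). Its level was 25.3, 30.1 and 24.0 CPM in wild-type, 29.2, 30.2 and 28.9 CPM in KO, 32.2, 28.9 and 28.2 CPM in I/M, and 55.1, 53.9 and 53.7 CPM in M/M libraries. The M/M libraries lay well above the other 9, which overlapped with one another. *Hspb6* rose 2.05-fold in M/M against wild-type (log2 fold change 1.03 ± 0.074 SE, adjusted p = 5.53e-08), 1.82-fold against I/M (0.87 ± 0.073, adjusted p = 6.92e-07) and 1.84-fold against KO (0.88 ± 0.073, adjusted p = 2.29e-07). The first of these stood close to the 2-fold threshold and fell under it without wild-type replicate 1 (0.99993) or wild-type replicate 3 (0.97), though the adjusted p stayed below 0.05.

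Against wild-type *Hspb6* differed by 0.17 in I/M (95% interval 0.0085 to 0.33, adjusted p = 0.103) and by 0.15 in KO (95% interval −0.0084 to 0.32, adjusted p = 0.306). The I/M difference passed the test with library size only (0.37, adjusted p = 0.000368) and without wild-type replicate 2 (0.27, adjusted p = 0.00524). The KO difference passed without wild-type replicate 2 (0.26, adjusted p = 0.0331). The *Hspb6* gene shares 122 exonic bases with the opposite-strand gene *Proser3*, which was counted 56 to 133 times per library against 1211 to 4968 for *Hspb6*.

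*Hspb8* encodes HSP22, which works with BAG3 to hand misfolded proteins to autophagy (chr5:116408491-116422864, minus strand). It was the rarest member, counted 104 to 157 times in wild-type and 659 to 926 times in I/M and M/M libraries. Its level was 2.48, 2.18 and 3.11 CPM in wild-type, 4.07, 4.14 and 4.73 CPM in KO, 9.38, 8.01 and 10.8 CPM in I/M, and 9.64, 10.04 and 8.59 CPM in M/M libraries. Wild-type, KO and the mutant genotypes formed 3 separate ranges, and the mutant genotypes overlapped. *Hspb8* rose 3.63-fold in M/M (log2 fold change 1.86 ± 0.14 SE, adjusted p = 7.69e-08) and 3.62-fold in I/M (1.86 ± 0.14, adjusted p = 3.65e-07) against wild-type.

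The mutant genotypes differed in *Hspb8* by 0.0043 (95% interval −0.25 to 0.26, adjusted p = 0.979), and by 0.31 (adjusted p = 0.0372) with library size only. *Hspb8* was 2.18-fold higher in M/M than in KO (1.13 ± 0.13, adjusted p = 4.42e-06). In KO against wild-type it rose 1.66-fold (0.73 ± 0.15, adjusted p = 0.0115), a call lost without wild-type replicate 2 (adjusted p = 0.0510) or KO replicate 3 (0.0631). *Hspb8* passed the filter, an unscaled CPM of at least 5 in at least 3 libraries, only through the mutant libraries, since no wild-type or KO library reached that level. With a filter of CPM of at least 1, which all libraries met, its log2 fold change against wild-type was 1.84 in M/M (adjusted p = 5.46e-08), 1.85 in I/M (2.56e-07) and 0.73 in KO (0.00991).

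*Hspb2* encodes the muscle-type family member that binds myotonic dystrophy protein kinase (chr9:50751078-50752354, minus strand). It was counted at 12.6, 11.2 and 12.6 CPM in wild-type, 15.2, 14.2 and 14.4 CPM in KO, 16.9, 13.8 and 14.6 CPM in I/M, and 14.7, 16.6 and 14.5 CPM in M/M libraries. Wild-type libraries were the lowest, and the other genotypes overlapped. *Hspb2* rose 1.26-fold in M/M (log2 fold change 0.33 ± 0.081 SE, adjusted p = 0.00313) and 1.24-fold in I/M (0.31 ± 0.082, adjusted p = 0.01003), the latter with an adjusted p of 0.0502 without wild-type replicate 2. The difference was 0.26 in KO (95% interval 0.084 to 0.44, adjusted p = 0.103).

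*Cryab* was counted more than 1000 times as often as *Hspb2*. Since the strand of the reads is not stated, it is not known whether reads on the exonic bases these genes share were told apart. There were 0.527 ± 0.086 *Hspb2* counts per 1000 *Cryab* counts in wild-type, 0.586 ± 0.016 in KO, 0.689 ± 0.039 in I/M and 0.743 ± 0.059 in M/M libraries. The ratio was not constant: the I/M and M/M libraries all lay above the wild-type libraries (exact permutation p = 0.1, adjusted p = 0.157).

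With both thresholds of the study (fold change of at least 2 and FDR of at most 0.05), 2 of the 6 members were higher in M/M than in wild-type (*Hspb6* and *Hspb8*), where 6.42% of all tested genes were. *Hspb8* alone was called in I/M against wild-type (2.58% of all genes were higher and 0.746% lower) and in M/M against KO (6.85% and 2.94%). None passed in KO against wild-type (0.234% of all genes were higher and 0.334% lower), where 3 members and 18.1% of all genes had an unadjusted edgeR p under 0.05. None passed in M/M against I/M (3.67% and 1.02%) either, where 2 members and 57.1% of all genes had such a p. DESeq2 and edgeR's exact test also passed 0 members in these 2 comparisons.

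At FDR alone, 4 members were higher and 1 lower in M/M against wild-type, where 31.4% of all genes were higher and 31.4% lower. In I/M against wild-type 3 were higher and 1 lower (17.3% and 15.3% of all genes), and in KO against wild-type 2 were called, both higher (2.16% of all genes were higher and 2.2% lower). In M/M against I/M 1 was higher and 1 lower (25.6% and 25.7%), and in M/M against KO 2 were higher and 2 lower (32.3% and 32.4%). With library size only all these FDR calls were higher, and so were most genes. They were 5 members in M/M against wild-type (82% of all genes higher and 5.51% lower), 4 in I/M (51.9% and 3.95%), 2 in KO (2.8% and 1.27%), 4 in M/M against I/M (70.4% and 5.43%) and 5 in M/M against KO (78.0% and 6.89%). Higher past both thresholds on that scale were 3 members in M/M against wild-type (*Hspb1*, *Hspb6* and *Hspb8*, 14.2% of all genes), 2 in I/M (3.44%), again 0 in KO (0.278%), 1 in M/M against I/M (5.93%) and 2 in M/M against KO (13.4%). No member was lower past both, against 0.857%, 0.49%, 0.301%, 0.345% and 1.19% of all genes in the same order. With 6 members these shares are coarse, and the comparisons share their wild-type, KO or M/M libraries. Over the 6 members the log2 fold changes had a median of 0.53 in M/M, 0.24 in I/M and 0.21 in KO against wild-type, against −0.0042, −0.00095 and 0.00042 for all tested genes.

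Directly between the homozygous and heterozygous mutants, *Hspb6* was higher in M/M, as given above, and *Cryaa* was 1.17-fold lower (−0.22 ± 0.077, adjusted p = 0.0279). That fall of *Cryaa* became 0.088 with library size only, and the call was lost in 6 of the 12 fits that left out 1 library (adjusted p up to 0.127, without M/M replicate 3). *Hspb1* differed by −0.16 (95% interval −0.43 to 0.12, adjusted p = 0.321) and by 0.036 without M/M replicate 3. *Cryab* differed by −0.093 (95% interval −0.27 to 0.088) and *Hspb2* by 0.015 (95% interval −0.15 to 0.18). With library size only both were called, *Cryab* at 0.22 (adjusted p = 0.00973) and *Hspb2* at 0.32 (adjusted p = 0.00504).

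Between M/M and KO, *Cryaa* was 1.38-fold lower in M/M (−0.46 ± 0.077, adjusted p = 0.000143) with TMM scaling, against −0.0010 with library size only, and *Cryab* was 1.21-fold lower (−0.28 ± 0.084, adjusted p = 0.0106), against 0.19 with library size only. The *Cryab* call was lost without M/M replicate 1 (−0.21, adjusted p = 0.0624). *Hspb1* differed by 0.14 (95% interval −0.14 to 0.41, adjusted p = 0.360), and by 0.34 (adjusted p = 0.00157) without the low M/M replicate 3. *Hspb2* differed by 0.065 (95% interval −0.11 to 0.24, adjusted p = 0.488). With library size only both were called, *Hspb1* at 0.59 (adjusted p = 0.000219) and *Hspb2* at 0.53 (adjusted p = 9.35e-05).

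**Figure D4:**
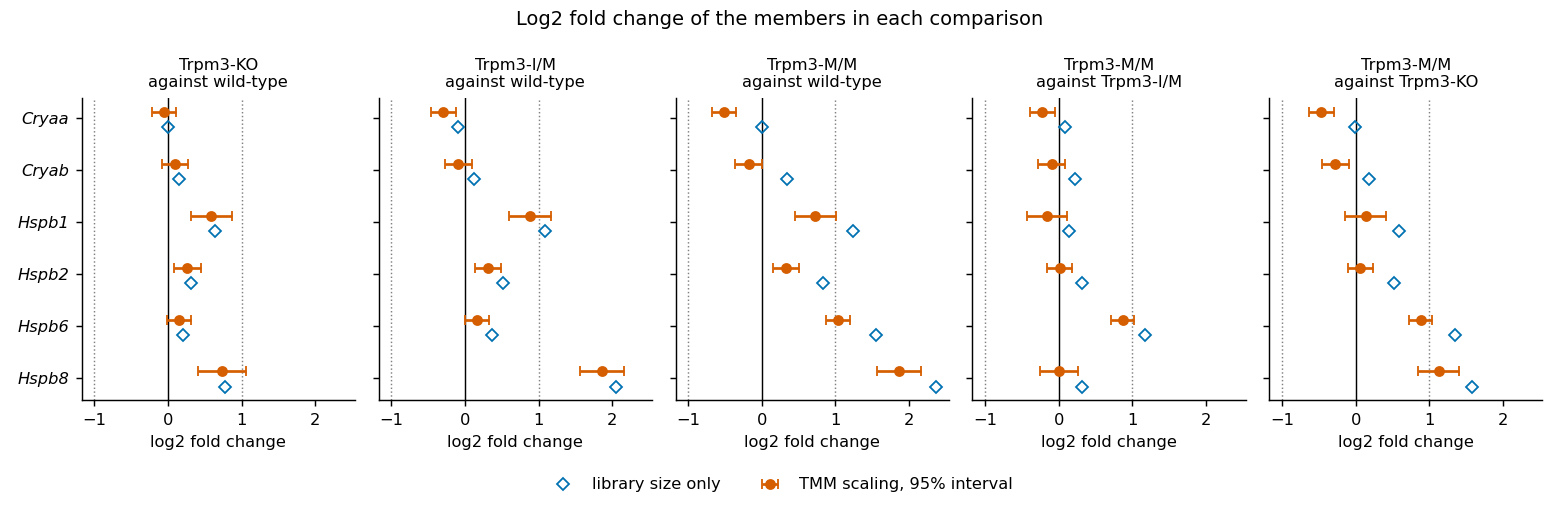
Log2 fold change of each gene in 5 comparisons, with TMM scaling and its 95% interval (filled circles) and with library size only (open diamonds); dotted lines mark 2-fold. *Hspb6* and *Hspb8* lie at or above 2-fold in M/M against wild-type under both scalings, whereas *Cryaa* moves from −0.51 to −0.00098 and *Cryab* from −0.18 to 0.34.

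Of 5 other small heat shock family genes, only *Hspb3*, a muscle-type member that pairs with HSPB2, passed the filter. It was at 10.5 ± 0.756 CPM in wild-type, 10.4 ± 0.383 in KO, 12.8 ± 0.562 in I/M and 13.7 ± 0.788 in M/M lenses, and rose in M/M (log2 fold change 0.38, adjusted p = 0.000208) and I/M (0.27, adjusted p = 0.00598). *Hspb11*, an intraflagellar transport gene that carries a family name, did not rise in the mutants. Its scaled CPM was 4.38 to 4.82 in wild-type, 5.05 to 5.33 in KO, 3.69 to 4.35 in I/M and 3.08 to 3.24 in M/M libraries. On the unscaled level that the filter reads it was at 3.67 to 4.99 over all libraries, with 3.67 to 4.33 in wild-type and 3.84 to 4.10 in M/M. *Hspb7* was counted 4 to 8 times in M/M libraries and at most once in any other, and *Hspb9* and *Odf1*, which are known from testis, were counted at most 6 times.

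All 14 other crystallins fell in M/M against wild-type under TMM scaling and under library size only (median log2 fold change −0.97 and −0.46), while 12 fell in I/M with TMM scaling and 4 fell and 1 rose with library size only. Of all tested genes, 31.4% were lower in M/M with TMM scaling and 5.51% with library size only. In I/M 15.3% were lower with TMM scaling, and 3.95% were lower and 51.9% higher with library size only. In KO *Crygf* rose (0.55, adjusted p = 0.00952) and its close copy *Cryge* fell (−0.57, adjusted p = 0.00188), while library size only called 2 higher and 1 lower. The largest falls in M/M past both thresholds were in *Crygb* (2.59-fold), *Crygf* (2.34-fold) and *Cryga* (2.26-fold), gamma crystallins whose reads can be split between near-identical copies. With library size only they were −0.86, −0.72 and −0.67 on the log2 scale, all short of 2-fold. The fall of *Cryaa* was 1.43-fold, and the difference between these falls was not tested.

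Among 15 tested heat shock factors and crystallin regulators, 9 were lower and 1 higher in M/M with TMM scaling, and 4 lower and 9 higher with library size only. Of all tested genes, 31.4% were lower and 31.4% higher with TMM scaling, and 5.51% lower and 82% higher with library size only. *Foxe3*, a transcription factor of the lens epithelium, fell 4.73-fold from 90.8 ± 14.0 to 19.2 ± 1.81 CPM (adjusted p = 4.57e-09), and *Sox2* fell 4.56-fold from 20.3 ± 2.65 to 4.44 ± 0.283 CPM (adjusted p = 4.96e-10), with the same direction under library size only. *Hsf1*, the factor that drives the stress response, was at 11.004 CPM in wild-type and 11.8 CPM in M/M (log2 fold change 0.11, adjusted p = 0.241), and at 0.62 (adjusted p = 5.54e-06) with library size only. *Hsf4*, the lens factor known to act on crystallin genes, went from 279 to 226 CPM (−0.31, adjusted p = 0.00157), while with library size only it turned to 0.20 (adjusted p = 0.0114). The medians of all genes were −0.0042 and 0.50. In I/M 7 of the 15 were lower and 1 higher, against 4 and 4 with library size only. The shares of all tested genes there were 15.3% lower and 17.3% higher, against 3.95% and 51.9% with library size only.

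Among 9 tested partners and clients of small heat shock proteins, 5 were higher and 3 lower in M/M (7 and 2 with library size only). Of all tested genes, 31.4% were higher and 31.4% lower (82% and 5.51% with library size only). *Bag3*, the co-chaperone that binds HSPB8 and HSPB6, rose from 16.4 to 28.0 CPM (log2 fold change 0.77, adjusted p = 3.45e-06). *Sqstm1*, the autophagy receptor p62, rose 2.64-fold from 140 ± 14.2 to 369 ± 28.9 CPM (adjusted p = 5.07e-09), and 1.01 on the log2 scale in I/M. *Flnc*, the muscle filamin cleared by the BAG3 and HSPB8 pathway, rose from 0.389 ± 0.088 to 17.6 ± 9.17 CPM (log2 fold change 5.49, adjusted p = 1.86e-07), and passed the filter only through M/M, where it was high. With the filter of CPM of at least 1 its value was 5.47 (adjusted p = 1.13e-07), a filter that again only M/M met in every library. *Bfsp1*, a filament protein of the fiber cell, fell 2.49-fold (adjusted p = 2.24e-07), and by 0.81 on the log2 scale, short of 2-fold, with library size only. In I/M 3 partners and clients rose and 2 fell, against 6 and 0 with library size only. The shares of all tested genes there were 17.3% and 15.3%, and 51.9% and 3.95% with library size only.

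Of 14 tested inducible chaperones, 8 were lower and 1 higher in M/M with TMM scaling, whereas 12 were higher and 1 lower with library size only, and their median was −0.18 and 0.33 against 0.50 for all genes on the latter scale. The 1 that rose with TMM scaling was *Hspa1b*, a strictly stress-inducible HSP70 gene, from 0.614 ± 0.132 to 8.08 ± 0.723 CPM (13.2-fold, log2 fold change 3.72, adjusted p = 2.03e-09), and it rose in I/M too (2.33, adjusted p = 1.51e-06). *Hspa1b* passed the filter only through M/M. With the filter of CPM of at least 1, the values were 3.70 (adjusted p = 1.3e-09) and 2.33 (adjusted p = 1.04e-06). That filter was met in the I/M and M/M libraries but in no wild-type or KO library (unscaled CPM up to 0.63 and 0.54). The gene thus again passed only where it was high. Its near-identical copy *Hspa1a* did not pass the filter, and reads can be split between them. In I/M 2 rose, against 11 with library size only. Of 4 tested kinases that act on small heat shock proteins, 3 were higher in M/M, and all 4 with library size only. Over all tested genes, 31.4% were higher and 31.4% lower in M/M, and 82% and 5.51% with library size only. In I/M 17.3% of all tested genes were higher, and 51.9% with library size only.

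**Figure D5:**
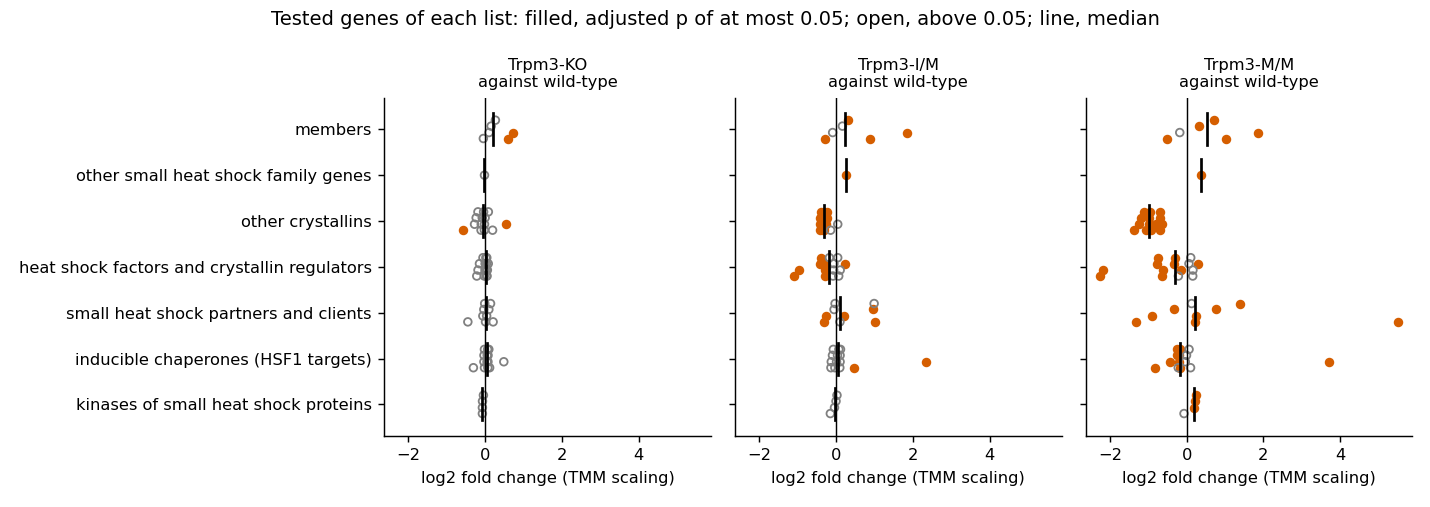
Log2 fold change (TMM scaling) of every tested gene of each list in the 3 comparisons with wild-type; filled points have an adjusted p of at most 0.05, open points do not, and the line is the list's median. The other crystallins lie to the left in M/M (median −0.97), and single genes stand far to the right, *Flnc* at 5.49 and *Hspa1b* at 3.72; with library size only the median of all genes in that comparison is 0.50 higher.

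Markers of other cell types were read in the same libraries, and they did not all move alike. The summed level of 12 smooth muscle and pericyte markers, cells that can express *Hspb6*, *Hspb2* and *Hspb8*, was 114 to 127 CPM in wild-type, 112 to 121 in KO, 133 to 156 in I/M and 266 to 353 in M/M libraries. *Acta2* held most of it, at 62.6 to 75.8 CPM in wild-type and 169 to 254 CPM in M/M. Of the 7 tested, 5 rose and 1 fell in M/M against wild-type, where 31.4% of all tested genes were higher and 31.4% lower. *Tagln*, *Cspg4* and *Rgs5* passed the filter only with the help of the M/M libraries, where they were high. Their place among the markers that rose was thus fixed by the filter. The defining marker *Myh11* was at 0.59 to 0.65 CPM in wild-type and 1.02 to 1.35 CPM in M/M, and *Cnn1* at 0.11 to 0.14 CPM in M/M. Some other markers of the list differed far more: *Rgs5* was at 0.26 to 0.97 CPM in wild-type, 2.59 to 8.001 in I/M and 29.1 to 34.1 in M/M. *Cspg4* was at 0.039 to 0.12 CPM in wild-type and 8.81 to 11.2 in M/M, *Tagln* at 0.18 to 0.25 and 6.60 to 11.4, and *Des* at 0.039 to 0.079 and 2.01 to 2.95.

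The 8 vascular endothelial markers summed to 5.80 to 8.23 CPM in wild-type, 6.07 to 6.80 in KO, 18.04 to 25.4 in I/M and 51.2 to 58.8 in M/M libraries. *Hspb8* was at 9.41 ± 1.42 CPM in I/M and 9.42 ± 0.751 CPM in M/M. The 8 macrophage markers summed to 0.416 to 0.531 CPM in wild-type, 0.879 to 0.996 in I/M and 9.54 to 19.9 in M/M, and the 8 photoreceptor markers to 0.693 to 0.912 CPM in wild-type and 1.58 to 4.60 in M/M. Of 10 skeletal muscle markers, which would matter for *Hspb2* and *Hspb3*, the sum was 7.06 to 7.77 CPM in wild-type and 7.39 to 8.97 in M/M, and 3 and 1 of the markers were at 0 counts. Most of this sum was *Actn3*, at 4.97 to 6.11 CPM in wild-type and 4.24 to 4.81 in M/M. *Ttn* was at 0.36 to 0.83 and 1.80 to 2.75 CPM, and *Myh8* had no count in wild-type and 15 counts over the M/M libraries. Other neural retina markers summed to 7.29 to 8.12 CPM in wild-type and 22.6 to 22.8 in M/M, nearly all of it *Glul*, and cornea and iris markers to 19.1 to 20.99 CPM and 16.2 to 19.7 CPM. Most of the latter was *Mitf*, at 17.8 to 19.4 CPM in wild-type and 11.4 to 11.6 in M/M, while the corneal *Aldh3a1* was at 0.22 to 0.40 and 3.59 to 5.15 CPM, and *Krt14* had no count in wild-type and 52 counts over the M/M libraries. The 10 lens fiber markers, of which 8 fell, summed to 16128 to 18482 CPM in M/M, and the 8 epithelial markers, of which 5 fell and 2 rose, to 459 to 511 CPM in wild-type and 339 to 358 CPM in M/M. Of all tested genes, 31.4% were higher and 31.4% lower in M/M against wild-type. The part of these cell types in the results above was not tested.

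Across the 12 libraries, log2 CPM of the members was compared pair by pair as a description, with genotype and scaling factor shared by all points. The highest correlation among members was between *Hspb1* and *Hspb8* (Pearson r = 0.83), followed by *Cryaa* and *Cryab* (0.79) and *Hspb2* and *Hspb8* (0.78). *Cryaa* ran opposite to *Hspb8* (−0.88) and *Hspb6* (−0.81). Outside the members, the 3 tested genes most like *Cryaa* were *Top1mt* (0.99), *Rps18-ps6* (0.98) and *Ppp1r16a* (0.98), and those most like *Cryab* were *Ndufb10* (0.96), *Ndufb1-ps* (0.91) and *Dusp8* (0.91).

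*Hspb1* was most like *Metrn* (0.95), its own copy *Hsp25-ps1* (0.94) and *Pdlim1* (0.92), and *Hspb2* most like *Prep* (0.91), *Zfp260* (0.87) and *Idh3a* (0.85). *Hspb6* was most like *Cap1* (0.98), *Sec63* (0.98) and *Ak1* (0.98), the last rising from 15.2 CPM in wild-type to 64.8 CPM in M/M. *Hspb8* was most like *Armcx2* (0.97), *Cdh4* (0.96) and *Btbd17* (0.96), and like it *Btbd17* stood close to the same level in I/M (68.3 CPM) and M/M (69.6 CPM).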

How the data were processed

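RNA was measured in 12 lens libraries with poly-A selection and a TruSeq kit. Per the labels and the study's methods, the authors aligned and quantified reads with DRAGEN on an Ensembl primary assembly and deposited an estimated count for every gene and library, without scaling. Of these counts, zeros included, 88.4% were whole to within 0.001 (71.8% of those above 0), where whole counts had been assumed, and they were rounded before any fit. The table held 55774 entries for 55487 identifiers. Repeated entries, which concerned 168 identifiers, were identical and entered once. The authors' table of their own edgeR comparisons, with counts, CPM, fold changes and p-values, was not used.

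The filter kept genes at an unscaled CPM of 5 or more in 3 or more libraries (8984 of 32266 with a count), scaled with TMM factors and fitted in 1 quasi-likelihood model of genotype over all 12 libraries in edgeR 4.0.16 under R 4.3.3. P-values were adjusted by Benjamini–Hochberg within each comparison over all tested genes. A gene was called at FDR of at most 0.05, and past both thresholds with a fold change of at least 2. Shares and ratios were compared by two-sided exact permutation tests in scipy 1.17.1. The fit was also run on simulated data in which equal numbers of genes were raised and lowered. That simulation did not model the fall in the crystallins' share of reads, so it cannot judge the scaling, and its outcome is not given here. Lengths and positions are those of GENCODE M21 on GRCm38. Nothing states that the pools were separate litters, so p-values measure the spread between these libraries, and every interval or error covers only that.

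The members and gene lists were chosen with earlier results of these data known. The text names the members, *Trpm3*, up to 3 genes of each list past both thresholds with the largest change in *Trpm3*-M/M against wild-type, the other small heat shock family genes, and the 3 genes most like each member by Pearson correlation of log2 CPM (prior count 2). *Crygf* and *Cryge* in *Trpm3*-KO, *Hsf1*, *Hsf4*, *Bag3*, single cell type markers, *Hspa1a* and the overlapping genes were named besides, after their values were seen. Alternatives were 3 scalings, DESeq2 1.42.0, edgeR's exact test, 2 filters, a replicate block, only the compared genotypes, other denominators, no fold change threshold and 12 fits with 1 library left out.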

Additional observations from a re-analysis of the deposited data

How the results depend on the processing

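Scaling to library size only changed the most. It gave log2 fold changes of 0.34 for *Cryab* in M/M and 0.12 in I/M against wild-type, of 4.0e-05 for *Cryaa* in KO against wild-type, of 0.088 for *Cryaa*, 0.22 for *Cryab* and 0.15 for *Hspb1* in M/M against I/M, and of 0.19 for *Cryab* in M/M against KO, all opposite in sign to the reported ones. With it 3 members, in place of 2, passed both thresholds in M/M against wild-type, 2 in I/M against wild-type, 1 in M/M against I/M and 2 in M/M against KO. With no fold change threshold the counts were 5, 4, 2, 2 and 4 in M/M, I/M and KO against wild-type and M/M against I/M and KO. Differences near 0 between M/M and I/M changed sign elsewhere: *Hspb2* was −0.020 with no filter and −0.0044 with CPM of at least 1, and *Hspb8* −0.031, −0.015 and, with upper-quartile factors, −0.0014. With 1 library left out they ran from −0.26 to 0.036 for *Hspb1*, −0.045 to 0.10 for *Hspb2* and −0.099 to 0.12 for *Hspb8*, and the members past both thresholds in M/M against wild-type from 1 to 2. Per kilobase of exon, the alpha share of crystallin reads was 5.70, 4.86 and 4.99 percentage points higher in M/M than in wild-type, I/M and KO. Causes were not tested beyond what each setting changes. Same-numbered libraries did not deviate together (r from −0.26 to 0.15), and a replicate block left 2, 1, 0, 0 and 1 members past both thresholds in the same order and changed no call. *Hspb8* failed the filter in KO against wild-type with only the compared genotypes. With no filter, adjusted p-values of well counted genes became extreme (*Cryge* in KO against wild-type 1.06e-35, against 0.00188), so the calls gained there were not read (*Cryab* in M/M, *Hspb6* in I/M and *Hspb2* in KO against wild-type, and *Cryab* and *Hspb1* in M/M against I/M). *Hspb8* in wild-type rests on 104 to 157 counts per library, and *Hspa1b* and *Flnc* there on fewer.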
